A study of Mus musculus with 3 samples.

Results

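The genes described here are 10 chemokine genes of the mouse, Cxcl1, Cxcl2, Cxcl3, Cxcl5, Cxcl16, Ccl2, Ccl5, Ccl7, Ccl20 and Cx3cl1. They are 10 of 20659 named genes on the array, and they were chosen by signal values already seen, several of them being far lower in both knockouts. Each is read by 1 probe whose accession is a transcript of the gene. The values that chose them are the signals and the flags described below, so these are given as a description, with no test.

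The series holds 3 samples, each of total RNA from cells labelled as mouse embryonic stem cells (mESCs). The genotypes are wildtype, LIFR KO (knockout of the receptor of the cytokine LIF) and gp130 KO (knockout of the signalling subunit that LIFR shares with other receptors of the IL-6 family, encoded by Il6st). The labels say of the culture that it was standard, and name no treatment, clone or strain. There was 1 single-colour Agilent array per genotype, so that every difference below is one between 2 arrays, with no p-value and no error between cultures. The question put by the design is how gene expression differs from wildtype when either receptor chain is lost.

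Chemokines are small secreted or membrane-held proteins that draw leukocytes along a gradient by way of G protein-coupled receptors. Those of the CXC class described here as Cxcl1, Cxcl2, Cxcl3 and Cxcl5 act on the receptor Cxcr2 and recruit neutrophils, while Ccl2 and Ccl7 act on Ccr2 and recruit monocytes. Many of these genes are induced quickly in epithelial cells and fibroblasts through the transcription factor NF-kB, with AP-1 and C/EBP factors, after a signal from the TNF, IL-1 or Toll-like receptors.

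The start regions of Cxcl1, Cxcl2 and Cxcl3 are shown first, since these genes lie in 1 cluster, had their highest signal on the wildtype array, and carry the same short sequence close to their starts. Of the 10 genes, 5 have a promoter window in the RefSeq table used here (GRCm38.p6), Cxcl1, Cxcl2, Cxcl3, Ccl20 and Cx3cl1. The others, among them Cxcl5, Ccl2 and Ccl7, have none there. The 130 bases upstream of each annotated start, positions -130 to -1 on the plus strand, are printed for the 3 neutrophil chemokines. They are chr5:90891115-90891244 for Cxcl1, chr5:90903769-90903898 for Cxcl2 and chr5:90785971-90786100 for Cxcl3. Cx3cl1, at chr8:94772050-94772179, is shown as a gene that was not lower in both knockouts. Capitals mark the sequence GGGAATTTCC, a form of the NF-kB site. It was picked, after these sequences had been seen, as the NF-kB stretch that the windows of Cxcl1, Cxcl2 and Cxcl3 share.
Cxcl1: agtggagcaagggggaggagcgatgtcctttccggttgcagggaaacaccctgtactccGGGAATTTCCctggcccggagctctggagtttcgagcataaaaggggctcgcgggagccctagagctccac
Cxcl2: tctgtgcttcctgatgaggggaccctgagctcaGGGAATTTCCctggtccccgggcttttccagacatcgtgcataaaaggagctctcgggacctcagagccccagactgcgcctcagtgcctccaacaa
Cxcl3: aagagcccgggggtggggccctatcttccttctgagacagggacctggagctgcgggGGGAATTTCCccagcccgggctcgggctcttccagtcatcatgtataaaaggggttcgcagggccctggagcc
Cx3cl1: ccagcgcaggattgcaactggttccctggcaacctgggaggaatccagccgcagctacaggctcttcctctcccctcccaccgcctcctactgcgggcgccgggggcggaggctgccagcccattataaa

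By that choice the windows of Cxcl1, Cxcl2 and Cxcl3 all held GGGAATTTCC. It was there once on the gene's strand, from position -71 in Cxcl1, -97 in Cxcl2 and -73 in Cxcl3. The window of Cx3cl1 and that of Ccl20 did not hold these letters. Since the letters were picked from the Cxcl windows, and Cx3cl1 by its known ratios, this contrast tests nothing. The table holds 32851 promoter windows of 300 bases (250 before and 50 after the start). Of these, 29 held GGGAATTTCC or its reverse GGAAATTCCC, or 0.0883%. The 29 include the 3 windows from which the letters were picked, so that this share tests nothing. The looser form GGGNNNNNCC, which includes every match of the exact one, was in 4 of the 5 windows and in 50.8% of all. Ccl20 held it from position -82, and Cx3cl1 did not hold it.

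Other motifs were searched on both strands too. TGANTCA (AP-1) and TTCNNNGAA (STAT factors, the class to which the LIF-activated Stat3 belongs) were in none of the 5 windows, against 7.81% and 8.30% of all windows. TTNNGNAA (C/EBP) was in 1, that of Cxcl2 from position -236, against 40.7%. TATAAA was in 2, from position -30 in Cxcl3 and -6 in Cx3cl1, against 13.6%. These are matches of letters within short windows, and sites farther upstream were not searched.

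**Figure D1:**
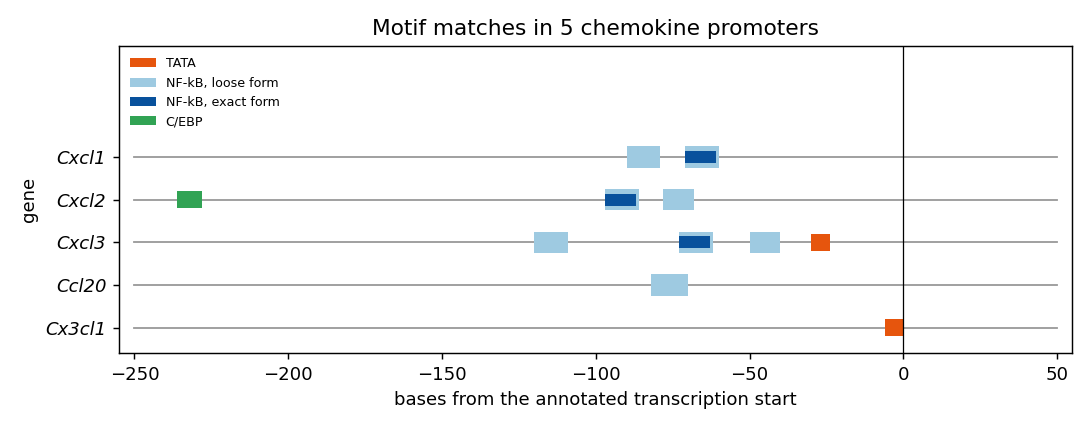
Matches of 4 motifs in the promoter windows of 5 chemokine genes, by distance in bases from the annotated start (vertical line); dark blue marks the exact NF-kB form, light blue the loose form, orange TATA and green C/EBP. The exact form lies between positions -97 and -62 in Cxcl1, Cxcl2 and Cxcl3 and is missing in the windows of Ccl20 and Cx3cl1.

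Few other genes carry the exact sequence. Leaving the chemokines described here out, 12 genes with GGGAATTTCC in a window were compared between the LIFR KO and the wildtype array. Of them 1 was at least 2-fold lower and 0 at least 2-fold higher, beside 1.62% and 2.87% of all genes compared. The lower gene is Nfkbia, which encodes the NF-kB inhibitor IkB-alpha and is itself an NF-kB target. Its signal was 8825 on the wildtype, 4068 on the LIFR KO and 4630 on the gp130 KO array. Of 13 genes with the exact sequence compared in the gp130 KO, 0 were at least 2-fold lower, and 1 was at least 2-fold higher. The shares of all genes compared were 0.784% and 1.61%. The median log2 ratios of the genes with the sequence were 0.0019 in the LIFR KO and -0.05 in the gp130 KO, beside -0.03 and 0.03 for all genes. With so few genes, nothing is read from these counts.

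The neutrophil chemokines had their highest signal on the wildtype array. The signal is the scanner software's processed brightness of the probe, and a probe is called detected where the software marks it as well above background. Cxcl5, a neutrophil chemokine of epithelial cells, had processed signals of 43588 ± 4359 in wildtype cells, 6727 ± 673 in the LIFR KO and 7976 ± 798 in the gp130 KO. The error is the one the scanner software gives for a single spot and covers no spread between cultures. Cxcl1, the mouse counterpart of the GRO chemokines, had 9220.1 ± 922, 711 ± 71.2 and 1090.5 ± 109 on the same arrays. For both genes the wildtype array stood far above the others, and the gp130 KO array lay somewhat above the LIFR KO array.

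Cxcl3, a close relative of Cxcl1, had signals of 1478 ± 148 in wildtype cells, 406 ± 40.8 in the LIFR KO and 339 ± 34.0 in the gp130 KO. Here the LIFR KO array had the higher signal of the knockouts. Once each array was scaled, the log2 ratio between them was -0.05, below its scanner error of 0.20. Cxcl2, also called MIP-2, was dim, with 27.4 ± 3.81, 7.58 ± 4.12 and 8.37 ± 2.48. It was detected on the wildtype array alone, and in the knockouts it was not well above background. Its level there is thus known only as a bound.

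Among the CC chemokines the same pattern held for Ccl2 and Ccl7 and not for Ccl5. The Ccl2 probe, for the monocyte chemokine MCP-1, was spotted 10 times on each array. Its signal was 5077 ± 212 on the wildtype, 956 ± 46.2 on the LIFR KO and 1517 ± 70.8 on the gp130 KO array (SD over 10 spots of 1 array each). The spots ran from 4735 to 5459, from 903 to 1048 and from 1427 to 1628, so that no spot of one array reached the range of another. The spots repeat the measurement of 1 RNA and are not separate cultures.

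Ccl7, the gene of the related monocyte chemokine MCP-3, was dim but detected on every array, with 92.0 ± 9.54 on the wildtype, 23.0 ± 4.72 on the LIFR KO and 28.8 ± 3.69 on the gp130 KO array. Ccl5, also called RANTES, which draws T cells and monocytes, had 1273 ± 127, 1514 ± 151 and 1318 ± 132. All 3 arrays were close for Ccl5, with no array set apart. Ccl20, which draws cells that carry Ccr6, was not detected on any array, at 2.20, 3.47 and 2.01, each with an error about as large as the value.

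The membrane-held chemokines, which are released by cutting at the cell surface, differed from wildtype by less than 2-fold in both knockouts in the main comparison below. Cxcl16 had signals of 3732 ± 373 in wildtype cells, 2601 ± 260 in the LIFR KO and 2617 ± 262 in the gp130 KO, with the knockouts alike and moderately lower. Cx3cl1, or fractalkine, had 3057 ± 306, 4644 ± 464 and 2348 ± 235. Its highest array was the LIFR KO and its lowest the gp130 KO.

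**Figure D2:**
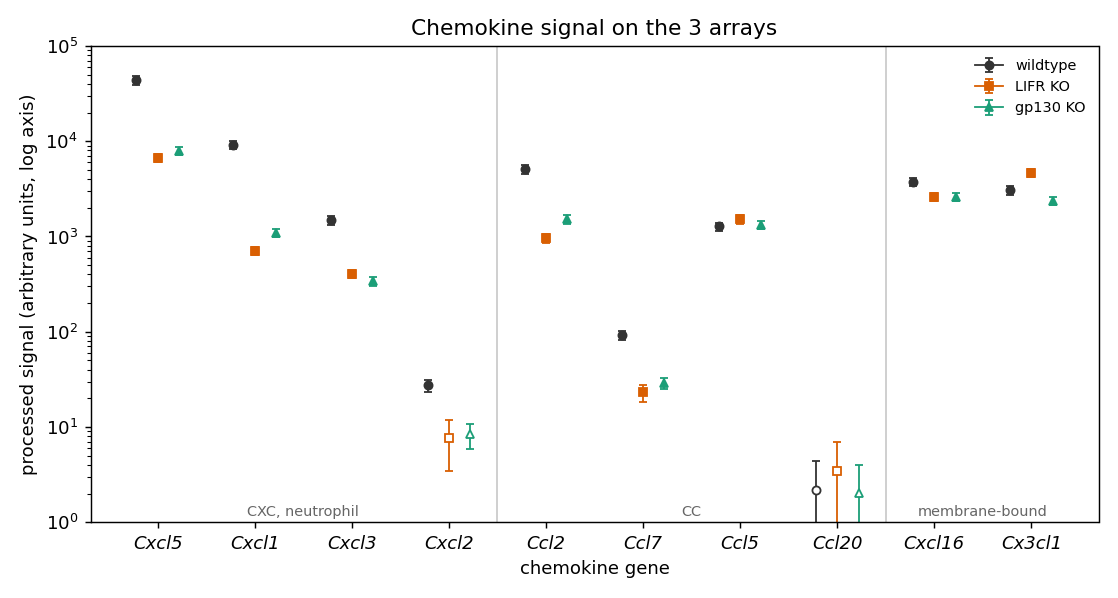
Processed signal (arbitrary units, log axis) of the 10 chemokine genes on the wildtype, LIFR KO and gp130 KO arrays, 1 point per array, with the scanner software's error as bars; open points were not well above background. Cxcl5, Cxcl1, Cxcl3, Ccl2 and Ccl7 are highest on the wildtype array, while Ccl5 is about level and Cx3cl1 is highest on the LIFR KO array.

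Against wildtype, 5 of the 9 chemokine genes compared were at least 2-fold lower on the LIFR KO array, beside 1.62% of all 14554 genes compared, and 0 were at least 2-fold higher, beside 2.87%. The comparison uses signals divided by the 75th percentile of each array, and a gene enters it when at least 1 of the arrays detects it, which leaves out Ccl20. Cxcl1 was 14.6-fold lower and was the lowest of all genes compared, Cxcl5 was 7.31-fold lower and ranked as number 3, and Ccl2 was 6.0-fold lower and ranked as number 7. Ccl7 was 4.51-fold lower, number 11, and Cxcl3 4.12-fold lower, number 15. The log2 ratios were -3.87, -2.87, -2.58, -2.17 and -2.04. The scanner error on these was 0.20, and 0.33 for Ccl7. These counts and ranks rest on the contrast by which the genes were picked, and nothing is read from them.

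Of the remaining 4, Cxcl16, Ccl5 and Cx3cl1 were under 2-fold on the LIFR KO array, and Cxcl2 has only a bound there. It was at least 1.85-fold lower, a bound set by the lowest signal that array detects, and 4.07-fold lower by its own values, with a scanner error of 0.81 on the log2 scale. Cxcl16 was 1.62-fold lower, Ccl5 had a log2 ratio of 0.08 and Cx3cl1 one of 0.43, or 1.35-fold higher. The median log2 ratio of the 9 genes was -2.04, beside -0.03 for all genes compared. Of all genes past 2-fold, 63.9% were higher, and 79.7% with no scaling, which shifts the median of all genes by 0.15. Over the alternative settings this share ran from 38.9%, with no filter on dim probes, to 97.2%, with the normexp background correction.

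On the gp130 KO array 6 of the 9 were at least 2-fold lower than on the wildtype array, beside 0.784% of all 14917 genes compared, and 0 were at least 2-fold higher, beside 1.61%. This comparison shares its wildtype array with the first, so that a high wildtype value enters both. Cxcl1 was 8.30-fold lower, Cxcl5 5.36-fold, Cxcl3 4.27-fold, Ccl2 3.28-fold and Ccl7 3.13-fold, with ranks of 3, 7, 17, 31 and 37 from the lowest. Cxcl2 was at least 2.78-fold lower by its bound, and 3.2-fold by its own values. Cxcl16 was 1.40-fold lower, with Ccl5 at a log2 ratio of 0.08 and Cx3cl1 at -0.35. The median of the 9 was -1.65, beside 0.03 for all genes compared. Of all genes past 2-fold, 67.2% were higher, and 55.3% in the authors' own log2 values. Over the alternative settings this share ran from 23.3%, with normexp, to 68.6%, with quantile normalization.

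Cxcl1, Cxcl3, Cxcl5, Ccl2 and Ccl7 were thus at least 2-fold lower in each knockout, as were 0.409% of the 14420 genes compared in both, and 0 were higher in each, beside 0.402%. The ratios of Ccl7 and Cxcl2, both of them dim, changed with the treatment of background, and the cause was not tested. The normexp background correction added an offset of 50 to the corrected signal of each spot. Fitted without spots under stray signal, it gave Ccl7 log2 ratios of -0.94 in the LIFR KO and -0.65 in the gp130 KO. With a fit on all spots Ccl7 turned to 0.99 in the LIFR KO, and Cxcl16 to -1.01, just past 2-fold lower. Cxcl1, Cxcl3, Cxcl5 and Ccl2 stayed at least 2-fold lower in both knockouts in all 12 alternative settings.

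**Figure D3:**
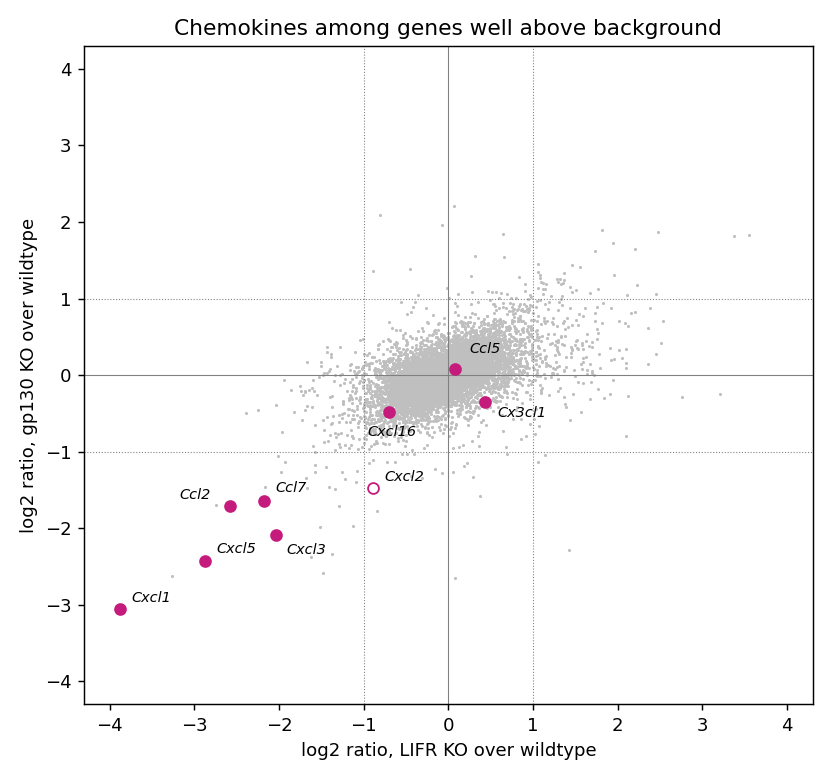
Log2 ratio over wildtype in the LIFR KO (horizontal) and in the gp130 KO (vertical) for 13115 genes well above background on the arrays compared (grey; 6 lie outside the axes) and for the chemokine genes (magenta; open for Cxcl2, drawn at its bounds); dotted lines mark 2-fold. Both axes share the wildtype array; Cxcl1, Cxcl5, Ccl2, Ccl7 and Cxcl3 lie at the lower left, with Ccl5, Cxcl16 and Cx3cl1 nearer to 0.

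Between the knockouts the chemokines differed by less than 2-fold. Of 8 compared, 0 were at least 2-fold lower and 0 at least 2-fold higher on the gp130 KO than on the LIFR KO array, beside 2.05% and 1.29% of all 14768 genes compared. Of all genes past 2-fold here 38.7% were higher, and 20.8% with no scaling. Over the alternative settings this share ran from 1.43%, with normexp, to 63.2%, with no filter on dim probes. Ccl2 was 1.83-fold and Cxcl1 1.77-fold higher on the gp130 KO array, with log2 ratios of 0.87 and 0.82. The 10 Ccl2 spots, each set against the spot at the same place on the other array, gave log2 ratios from 0.82 to 0.93. Ccl7 at 0.53 and Cxcl5 at 0.45 lay the same way, and Cxcl16 at 0.21 was close to its scanner error of 0.20. Cxcl3 at -0.05 and Ccl5 at 0.0028 were level. Cx3cl1 was the one that lay clearly lower on the gp130 KO array, by 1.72-fold, with a log2 ratio of -0.78.

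**Figure D4:**
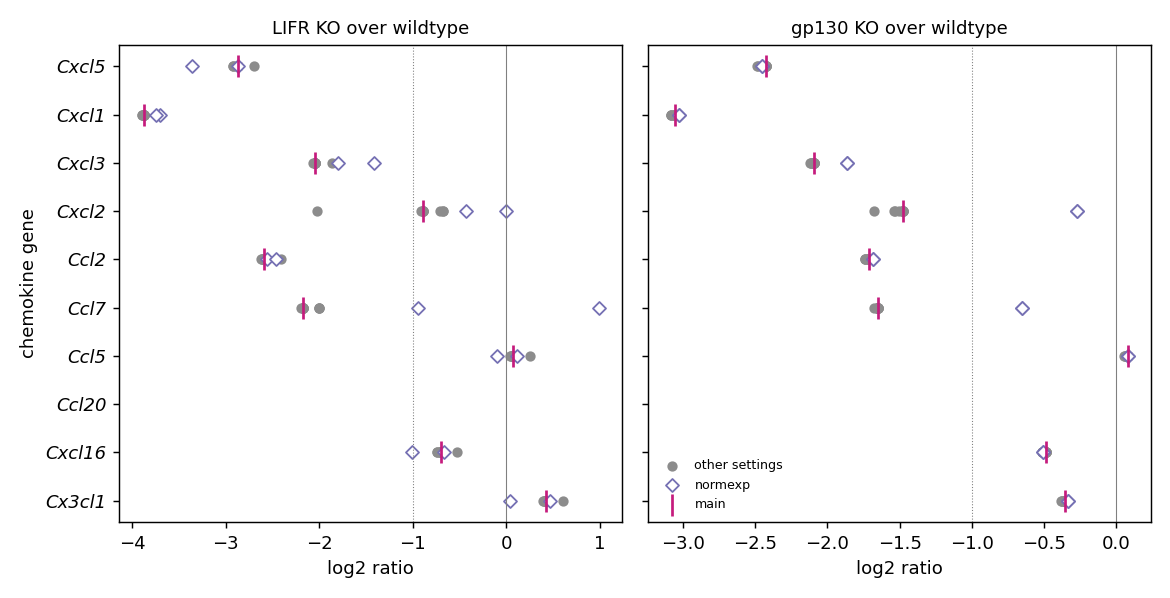
Log2 ratio over wildtype of each chemokine gene in the main setting (magenta bar), under 2 forms of the normexp background correction (diamonds) and under the other settings (grey), for the LIFR KO and the gp130 KO; dotted lines mark 2-fold lower. Cxcl5, Cxcl1, Cxcl3 and Ccl2 lie below -1 in every setting, while Cxcl2 and Ccl7 move most, and Ccl20 has no ratio.

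The lower genes lie in 2 clusters, and most of their detected neighbours were under 2-fold. In the order of the RefSeq gene table, Cxcl5, Ppbp, Pf4, Cxcl3, Cxcl15, Cxcl1 and Cxcl2 follow each other on chromosome 5. Ppbp, a platelet chemokine that lies beside Cxcl5, had signals of 272 in wildtype cells, 293 in the LIFR KO and 243 in the gp130 KO. Neither Pf4, between Ppbp and Cxcl3, nor Cxcl15, between Cxcl3 and Cxcl1, was detected on any array. The nearest genes that encode no chemokine were about level too. Rassf6 had log2 ratios of 0.12 and -0.08 in the LIFR KO and the gp130 KO, and Mthfd2l, a gene of mitochondrial folate metabolism, -0.23 and -0.16.

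On chromosome 11, Ccl2 and Ccl7 are direct neighbours, followed by Ccl11, Ccl12, Ccl8 and Ccl1, none of which was detected. Ccl5 lies elsewhere on the same chromosome, beside Ccl9, Ccl6, Ccl3 and Ccl4. Of these, Ccl4, the gene of MIP-1-beta, had signals of 18045 in wildtype cells, 13635.5 in the LIFR KO and 15379.7 in the gp130 KO, with log2 ratios of -0.58 and -0.20. No gene of the Ccl5 neighbourhood was called at 2-fold in either knockout. Ccl3, at 14.5 in wildtype cells and not detected in the LIFR KO, has a bound there that leaves its difference unknown. The genes around the clusters were taken by position after the values were known.

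**Figure D5:**
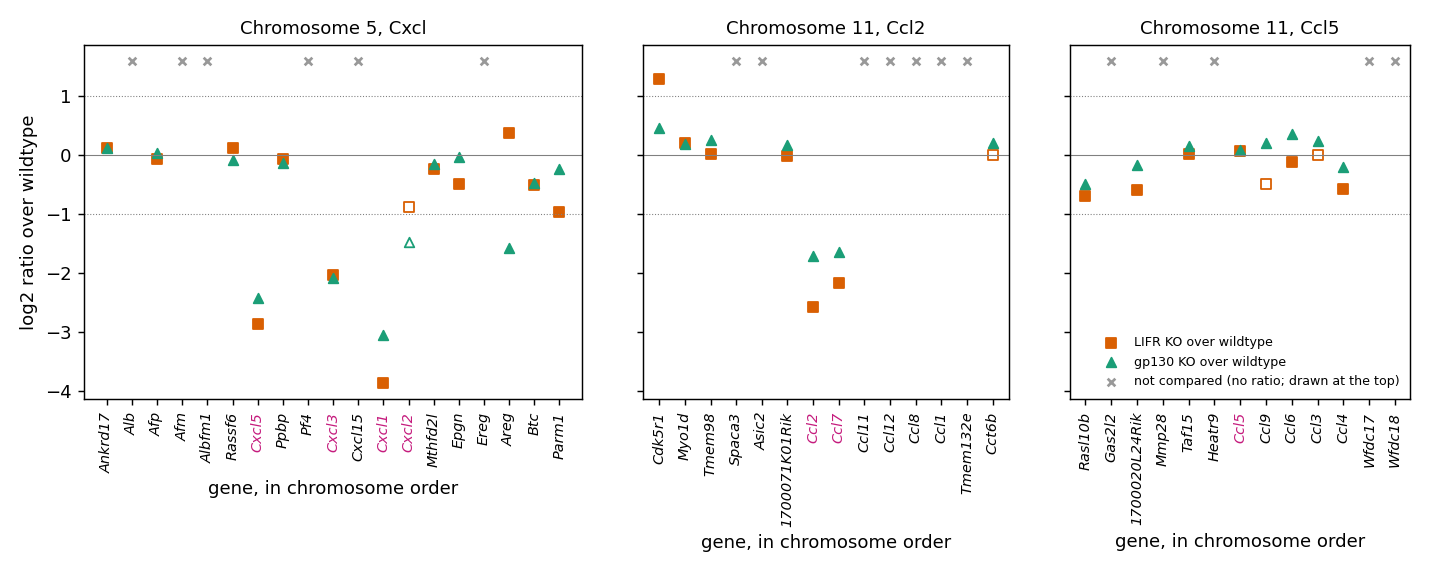
Log2 ratio over wildtype in the LIFR KO (squares) and the gp130 KO (triangles) for protein-coding genes in chromosome order around Cxcl5 to Cxcl2, around Ccl2 and Ccl7, and around Ccl5 (chemokines described here in magenta); open points are bounds and grey crosses mark genes with no ratio. Cxcl5, Cxcl3, Cxcl1, Ccl2 and Ccl7 lie at or below -1.65 in both knockouts, and of the neighbours drawn only Areg and Cdk5r1 are past 2-fold by their value or bound, with Parm1 at -0.97 in the LIFR KO.

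Other chemokine genes were mostly not detected, and 1 of those compared was called at 2-fold. In this and the following counts a gene whose bound is under 2-fold is not called, and its true difference may be larger. Beside all these counts, 1.62% of all genes compared were at least 2-fold lower and 2.87% higher in the LIFR KO. In the gp130 KO the shares were 0.784% and 1.61%. A count of 0 or 1 in lists this short says little beside such shares. Of 9 further CXC chemokine genes on the array, 6 were detected on no array, and of 17 further CC and XC genes, 9 were not. Among 3 CXC genes compared in the LIFR KO none reached 2-fold, and among 3 in the gp130 KO Cxcl9, an interferon-induced T cell chemokine, was at least 3.59-fold lower. Cxcl9 had a signal of 35.4 on the wildtype and 54.4 on the LIFR KO array and was not well above background in the gp130 KO. Cxcl10, its close relative, had 395, 297 and 294. Of the 8 CC and XC genes compared in each knockout 0 reached 2-fold, with Ccl25 at 504, 658 and 600.2.

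Of 23 chemokine receptor genes, 7 were detected on all 3 arrays and 11 on none. Cxcr2, the receptor of the neutrophil chemokines, was detected only in the gp130 KO, at 13.5, and Ccr2, the receptor of Ccl2 and Ccl7, on no array. Both are named for their ligands, with their values known. The gp130 KO bound of Cxcr2 was 1.98-fold higher than wildtype, just under the 2-fold call. Of 10 receptor genes compared in the LIFR KO, Cxcr3 was 2.77-fold lower, with 294 on the wildtype, 120 on the LIFR KO and 175 on the gp130 KO array. Of 12 compared in the gp130 KO, 0 reached 2-fold. Ackr3, a scavenging receptor, had 2611, 2584 and 2119.

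Of 22 genes of receptors and adaptors that switch chemokine genes on, 20 were detected on all 3 arrays and 1, Tlr5, on none. Of 21 compared in each knockout, 1 reached 2-fold in the LIFR KO and 0 in the gp130 KO. Il17ra, a subunit of the receptor for interleukin 17, was 2.27-fold higher in the LIFR KO, with 74.6 on the wildtype, 191 on the LIFR KO and 80.2 on the gp130 KO array. Ltbr, the lymphotoxin beta receptor, had 6126, 7374 and 6453, and Il17rc 3608, 3820 and 3569. The medians of the list were -0.10 and 0.04. Tlr4, the endotoxin receptor gene, lay above wildtype in both knockouts, with log2 ratios of 0.68 and 0.88, and Cd14, its co-receptor gene, at -0.86 and -0.22. Tlr1 was detected in wildtype cells alone, so that its ratios are bounds. Tlr1, Tlr4, Tlr5 and Cd14 were named after their values were seen.

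Of 14 genes that limit or stabilise chemokine mRNA or feed back on NF-kB, 2 were at least 2-fold lower in the LIFR KO. In the gp130 KO 1 was, beside 1.62% and 0.784% of all genes compared in the LIFR KO and the gp130 KO. Tnfaip3, the gene of the NF-kB inhibitor A20, was 2.67-fold lower in the LIFR KO and 1.82-fold lower in the gp130 KO. It had 6989, 2951 and 3770 on the wildtype, LIFR KO and gp130 KO arrays. Nfkbia, with the values above, was 2.45-fold lower in the LIFR KO and 1.87-fold lower in the gp130 KO. Zc3h12a, the gene of the ribonuclease Regnase-1, was 3.43-fold lower in the gp130 KO, with 1051, 663 and 301. Zfp36l2, which speeds the decay of AU-rich mRNA, was near level, with log2 ratios of -0.06 and -0.29.

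Of 8 genes for the enzymes that cut membrane-held chemokines, or for their regulators, 0 reached 2-fold in either knockout. Adam10, which cuts both Cxcl16 and Cx3cl1, had signals of 4988 in wildtype cells, 5929 in the LIFR KO and 5352 in the gp130 KO. Timp1, an inhibitor of metalloproteases, had 6498, 6794 and 5699.

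Of 12 other inflammatory cytokine genes compared, 7 were at least 2-fold lower in the LIFR KO and 6 in the gp130 KO, beside 1.62% and 0.784% of all genes compared, and 0 were at least 2-fold higher in either. Csf3, which encodes G-CSF, a growth factor of neutrophils, had signals of 9215 in wildtype cells, 1081 in the LIFR KO and 1463 in the gp130 KO. Lif had 688, 116 and 208, and Il1a 1357, 535 and 335. Il6 had 36.4 on the wildtype array and was not well above background in the knockouts, at least 2.46-fold and 3.70-fold lower. Csf1, the macrophage growth factor, differed from these, with 7019.9, 8113 and 4456. This list was chosen with such results known, and its direction is no independent evidence.

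Some genes outside the chemokines had ratios near those of Ccl2, while those nearest to Cxcl1, apart from Csf3, lay farther off. Likeness was measured as the distance between the pairs of log2 ratios over wildtype, among 13121 genes detected on all 3 arrays. The chemokines described here were left out of this ranking. Cxcl5, at -2.87 and -2.42, was thus not ranked against Cxcl1, nor Ccl7, at -2.17 and -1.65, against Ccl2. Of the genes ranked, Csf3 was nearest to Cxcl1, at a distance of 0.74, followed by Lif at 1.76. Next came the immediate early gene Egr1 at 2.33, Prr36 at 2.35 and Rgs16, a regulator of G protein signalling, at 2.44. The genes nearest to Ccl2 were Lif at 0.16, Egr1 at 0.49, the secreted protease gene Adamts1 at 0.76, the prostaglandin synthase gene Ptgs2 at 0.87 and the transcription factor gene Cebpd at 0.87. Ptgs2, for example, had signals of 10744 in wildtype cells, 3187 in the LIFR KO and 4786 in the gp130 KO. A distance over 2 ratios that share 1 array says little about what else these genes share.

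In bulk RNA, fewer cells that express a gene and less RNA per cell cannot be told apart, and this holds for every value above. Of 12 leukocyte marker genes on the array 9 were detected on all 3 arrays, with summed signals of 3590 on the wildtype, 3254 on the LIFR KO and 3508 on the gp130 KO array, and none reached 2-fold. Most of that sum came from Elane (1431, 1407 and 1545), the gene of neutrophil elastase, from Itgam (937, 888 and 919), a myeloid integrin gene, and from the T cell gene Cd3e (724, 458 and 549). The pan-leukocyte gene Ptprc had 22.7, 19.5 and 19.1, while Lyz2, S100a9 and Mpo were detected on none. Of 11 fibroblast and feeder markers, 4 were detected on all 3 arrays, with sums of 618, 904 and 754, and Pdgfrb and Lum on none, while Col1a1 was 3.23-fold higher in the LIFR KO and Dcn 2.08-fold higher in the gp130 KO. Of 6 endothelial markers, 2 were, with sums of 1366, 1164 and 1249. The part of these cells in the chemokine values was not tested.

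All 10 epithelial markers were detected on every array, with sums of 65673, 81399 and 68602 and with Cldn4 2.20-fold higher in the LIFR KO. Most of each sum came from Krt18 (39533, 50636 and 41452). All sums of marker signals are of signals before scaling, and the LIFR KO array was brighter, with a 75th percentile of 749.9 beside 664 and 652. After scaling, the median log2 ratios of the epithelial markers were 0.19 in the LIFR KO and 0.11 in the gp130 KO. Of 12 pluripotency markers 8 were detected on every array, with sums of 2593, 2587 and 2671. The brightest on the wildtype array were Lin28a (727, 536 and 821) and Klf4 (673, 845 and 632). Nanog had 316, 217 and 329, and Pou5f1 was dim, at 31.2, 22.7 and 20.3. Sox2, Zfp42, Dppa3 and Fgf4 were detected on none. Neither targeted gene set its own knockout apart, with Il6st at 329, 369 and 299 and the 1 detected Lifr probe at 34.9, 29.97 and 34.7, and where they lie relative to the deleted parts is not given in the sources used here. Part of the LIFR KO array lay under stray signal, with a local background of up to 25884. The local background at the spots of the 10 chemokine genes ran from 18 to 33 over the 3 arrays.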

How the data were processed

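Cy3-labelled cRNA from total RNA was hybridised to 1 single-colour array per genotype, per the labels' protocols. The array design was 026655, on mm9 coordinates, and Feature Extraction 11.0.1.1 read the scans, per the file headers, while the submitters' processing notes name version 9.1. The deposited intensity of each spot is a background-subtracted, detrended brightness, and the median brightness of spot and local background served the normexp alternative, since the mean signal is not among the columns. The deposited flags of 0 or 1 are another kind of value and mark outlier spots and spots well above background. The deposited log2 values of the authors' series matrix, with medians of 5.39 in each column, correlated with the log2 signal at r = 0.996, 0.999 and 0.995. Their normalisation is not given in the sources used here.

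Outlier spots were left out, log2 signals of a probe's spots were averaged, and each array's 75th percentile over its spots (664, 749.9 and 652) was subtracted. Of 39429 probes 27234 were named by accession. A gene was read from its brightest probe, and counted as detected where at least 50% of its spots were flagged. Where 1 array did not detect it, its ratio is a bound, taken against the higher of the dim value and the lowest detected signal of that array (6.94, 16.7 and 9.66), as for Cxcl2. No test was run, since there were no replicates. Among repeated spots the median SD was 0.053, 0.048 and 0.053 on the log2 scale. The number of arrays limits the precision.

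The members and gene lists were chosen with earlier results of these data known. Genes named are the 10 chemokines and, per list, up to 4 past 2-fold and up to 2 of the brightest. The 5 nearest to Cxcl1 and to Ccl2 outside the 10 chemokines, and Lifr and Il6st, were named too. Outside this rule, with their values known, are the neighbours in the clusters and the cell type markers named for being detected, dim or not detected. So are those said to be picked otherwise. The computation of the ratios was checked on simulated arrays; this is no test of the differences. Python 3.11.15 and limma 3.58.1 were used.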

Additional observations from a re-analysis of the deposited data

Results flagged for a closer look

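Cx3cl1, the gene of the membrane-held chemokine fractalkine, lay on opposite sides of wildtype in the knockouts, with a log2 ratio of 0.43 in the LIFR KO and of -0.35 in the gp130 KO. The log2 ratio of the gp130 KO over the LIFR KO was -0.78, with a scanner error of 0.20. It was flagged because both ratios to wildtype passed 0.15, a half-width taken from the median SD of repeated spots. Taken from an upper percentile of that SD, the half-width was 0.59, which neither ratio passes. With 1 array per genotype, the difference was not tested. Over 12 alternative settings the log2 ratio to wildtype ran from 0.04 to 0.60 in the LIFR KO. In the gp130 KO it ran from -0.38 to -0.33, and between the knockouts from -0.98 to -0.38.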

How the results depend on the processing

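No paired analysis was possible because each genotype has 1 array and the labels give no replicate numbers, and for the same reason no array could be left out. Over 12 alternative settings, 4 to 6 of the chemokines were at least 2-fold lower in the LIFR KO and 4 to 6 in the gp130 KO. Cxcl1 ran from -3.90 to -3.70 and from -3.09 to -3.03 on the log2 scale. With normexp Ccl7 turned to 0.99 and Cxcl16 to -1.01 in the LIFR KO. The chemokine median was then -1.01 in the LIFR KO and -0.65 in the gp130 KO, and 1 chemokine was at least 2-fold lower in the gp130 KO than in the LIFR KO. Genes lower and higher numbered 94 and 3302 in the LIFR KO, 33 and 10 in the gp130 KO, and 3247 and 47 between the knockouts. With normexp fitted without stray signal the medians were -0.94 and -0.65, and the counts 65 and 112, 33 and 10, and 79 and 37. With no scaling 144 genes were lower in the LIFR KO, 113 were higher in the gp130 KO than in the LIFR KO, and the chemokine medians were -1.87 in the LIFR KO and 0.13 between the knockouts. Without the filter on dim probes the counts were 1018 and 649, 594 and 654, and 564 and 969. Where both arrays had to detect a gene, 253 were higher in the LIFR KO, 66 lower and 78 higher in the gp130 KO, and 184 and 124 between the knockouts. Where every spot had to be detected, a setting chosen after seeing the data, 146 were higher in the gp130 KO. The causes were not tested, other than that settings on detection change how many genes are compared. Signal over background limits Cxcl2, Ccl7 and Ccl20.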

Other observations

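Some genes that act on chemokine mRNA or on membrane-held chemokines differed between the knockouts though the chemokines themselves did not reach 2-fold there. On the gp130 KO array Zfp36, whose product tristetraprolin speeds the decay of cytokine mRNA, was 2.38-fold lower than on the LIFR KO array, with signals of 69.7 on the wildtype, 137 on the LIFR KO and 50.045 on the gp130 KO array. Arid5a, whose product stabilises Il6 mRNA, was 2.03-fold lower, with 2087, 4081 and 1744. Rhbdf2, whose product brings the sheddase ADAM17 to the cell surface, was 2.34-fold lower, with 3550, 7016 and 2608. Over wildtype the log2 ratios of Zfp36, Arid5a and Rhbdf2 were 0.80, 0.79 and 0.81 in the LIFR KO. In the gp130 KO they were -0.45, -0.23 and -0.42. At least 2-fold lower in the gp130 KO than in the LIFR KO were 2 of 14 genes of the mRNA list and 1 of 7 sheddase genes compared. The share of all genes compared was 2.05%. These genes were picked for their difference after the values were seen.

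Areg, the gene of the growth factor amphiregulin, lies a few genes beyond Cxcl2 on chromosome 5. It had signals of 1906 in wildtype cells, 2777 in the LIFR KO and 628 in the gp130 KO. It was 2.98-fold lower than wildtype in the gp130 KO and 1.29-fold higher in the LIFR KO.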
